A study of Drosophila melanogaster with 5 samples.

Results

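Spermatocyte stage testes, sampled at 24 and 32 h post-heat shock (PHS), were set against proliferating stage testes, sampled with no heat shock (no HS) and at 8 and 16 h PHS, in RNA-seq of synchronized male germ cells of Drosophila melanogaster. The comparison used 2 late and 3 early libraries, which were all 5 libraries of the series. Members were assigned to a stage by the time in their labels, and the boundary between 16 and 24 h PHS was set with earlier results of these data known. All males had the genotype hs-bam; bam[1]/bam[86], in which the only functional source of Bam is a transgene under a heat shock promoter. Males of all 5 libraries were reared at 25 °C. Those of both late libraries and of 8 and 16 h were held at 37 °C for 30 min as mid- and late-stage pupae. The no HS males were not heated. Heat shock itself was thus shared by both late libraries but by only 2 of the 3 early ones. PolyA RNA came from about 100 pairs of testes with seminal vesicles per time. The libraries held between 10356663 and 28766676 reads, with no HS the shallowest.

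Each time point was sequenced in 1 library. The libraries of a stage are therefore different times, not repeats of one time, and every p below sets the difference between stages against the spread among times within a stage. Values are normalized CPM, reads of a gene per 1000000 reads of its library, adjusted between libraries by the authors' TMM (trimmed mean of M-values) factors. The sum of a library was therefore near 1000000 but not equal to it. Differences are those of the mean of log2(CPM + 1), late minus early. A feature was called at an adjusted p under 0.05 from limma, fitted over the 8873 features whose mean reached 1 CPM. Because whole testes were used, more cells of one kind and more RNA per cell cannot be told apart.

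In the male germ line, spermatogonia divide mitotically a few times as interconnected cysts, complete a last premeiotic S phase and become spermatocytes. Spermatocytes grow for days, switch on a large testis-specific transcription program and hold many transcripts back from translation until meiosis or later. Bam is the protein that ends the mitotic divisions. Without it, as in these males before heat shock, spermatogonia keep dividing.

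bam itself was at 74.2 and 60.5 CPM at 24 and 32 h PHS, against 64.7, 128 and 90.4 CPM in no HS and at 8 and 16 h PHS. The stages overlapped, and the difference was -0.43 (SE 0.24, adjusted p = 0.339). Reads of the hs-bam transgene and of the bam[1] and bam[86] alleles were counted together. The germ line helicase gene vas was at 347 and 254 CPM in late libraries and at 281, 316 and 299.7 CPM in early ones, so germ cell transcripts were present throughout.

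The change between stages was narrow. The median difference over all tested features was 0.01, the middle 50% of features (between the quartiles) lay between -0.16 and 0.15, and 98.2% differed by no more than 2-fold. limma called 86 genes higher in late libraries, which was 0.969% of those tested, and 301 lower, which was 3.39%. Of the 86, 10 were under 1 CPM in every early library. Those 10 entered the test only through the late libraries, so their p-values are given as values and not as support. An unadjusted p under 0.05 was reached by 1891 features. The falls were more numerous and the rises were larger. The median difference was -0.68 over the called falls and 0.86 over the called rises, and the largest sizes were 2.07 for a fall and 5.87 for a rise.

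Both late values lay above all 3 early values for 1740 features (19.6%) and below them for 1909 (21.5%). When a difference of more than 2-fold was also required, 61 genes were higher (0.687%) and 78 were lower (0.879%). limma called 35 of those 61 and 61 of those 78, and every gene limma called had no overlap between the stages. None of the 62 transposon features tested was called, in either direction.

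The limma counts changed with the times that stood for a stage. Without the 32 h library 9 genes were called higher and 2 lower, and without the 8 h library 16 were higher and 20 lower. Without no HS the counts were 52 higher and 151 lower. Without the 24 h library 202 were higher and 302 lower, and without the 16 h library 128 were higher and 436 lower. Leaving out 24 or 32 h leaves 1 late library, so the spread then comes from the 3 early libraries alone and the lone library is assumed to vary like them. Over 2-fold with no overlap, 35 genes were higher without 32 h, 127 higher without 24 h, and 131 lower without 16 h.

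**Figure D1:**
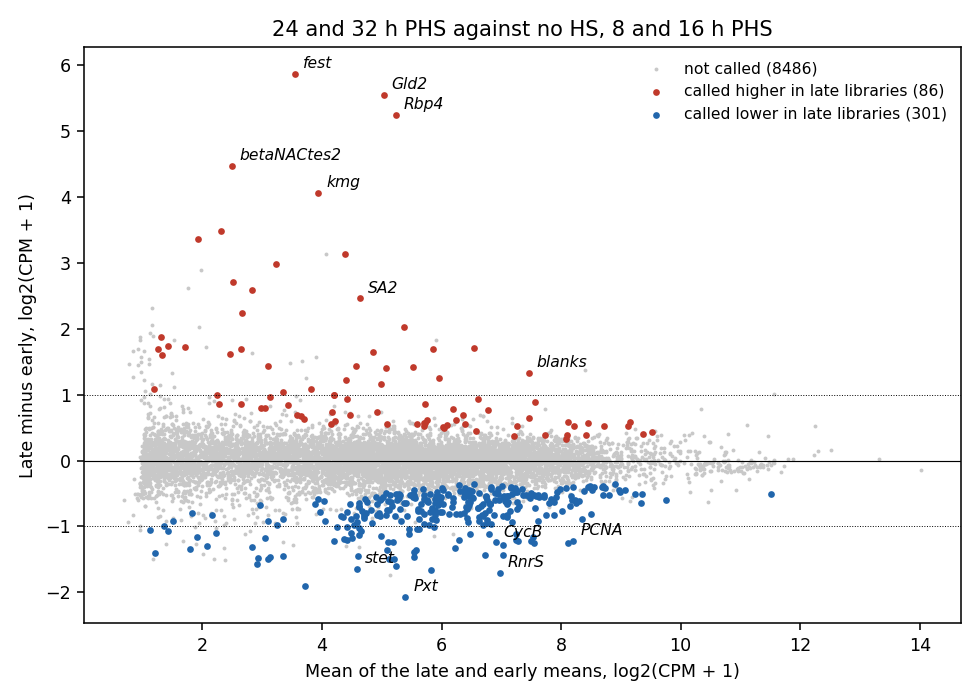
Late minus early difference (vertical axis, log2(CPM + 1), mean of 24 and 32 h PHS minus mean of no HS, 8 and 16 h PHS) against the mean of both stage means (horizontal axis, same scale) for the 8873 tested features, 1 point each. The 86 genes called higher reach 5.87, while the 301 called lower stay within 2.07 of 0, and dotted lines mark a 2-fold difference.

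All 3 stage markers were called, kmg and Rbp4 higher and PCNA lower in late libraries. These genes mark the stages, and the boundary was set with earlier results of these data known. Their p-values are therefore given as values and not as support. kmg (FBgn0032473, chromosome 2L from 13160527 to 13163153, plus strand, BDGP6.54 annotation) encodes a zinc finger protein of spermatocytes that restricts which promoters the testis-specific activators use. It was at 51.5 and 73.8 CPM at 24 and 32 h PHS, against 2.63, 2.20 and 3.56 CPM in no HS and at 8 and 16 h PHS, a difference of 4.06 (SE 0.20, adjusted p = 0.000194). The lowest late value was far above every early one. Rbp4 (FBgn0010258, chromosome 3R from 13654556 to 13656394, minus strand) encodes an RNA-binding protein that holds back translation of CycB in young spermatocytes. It was at 133 and 399.6 CPM in late libraries, against 4.19, 6.31 and 4.94 CPM in early ones, a difference of 5.25 (SE 0.38, adjusted p = 0.00106). PCNA (FBgn0005655, chromosome 2R from 20261754 to 20262883, minus strand) encodes the sliding clamp of DNA polymerases. It was at 204 and 178 CPM in late libraries, against 504, 488 and 357 CPM in early ones, a difference of -1.22 (SE 0.15, adjusted p = 0.0073). PCNA thus kept 42.5% of its early mean, with the 16 h library nearest to the late ones.

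**Figure D2:**
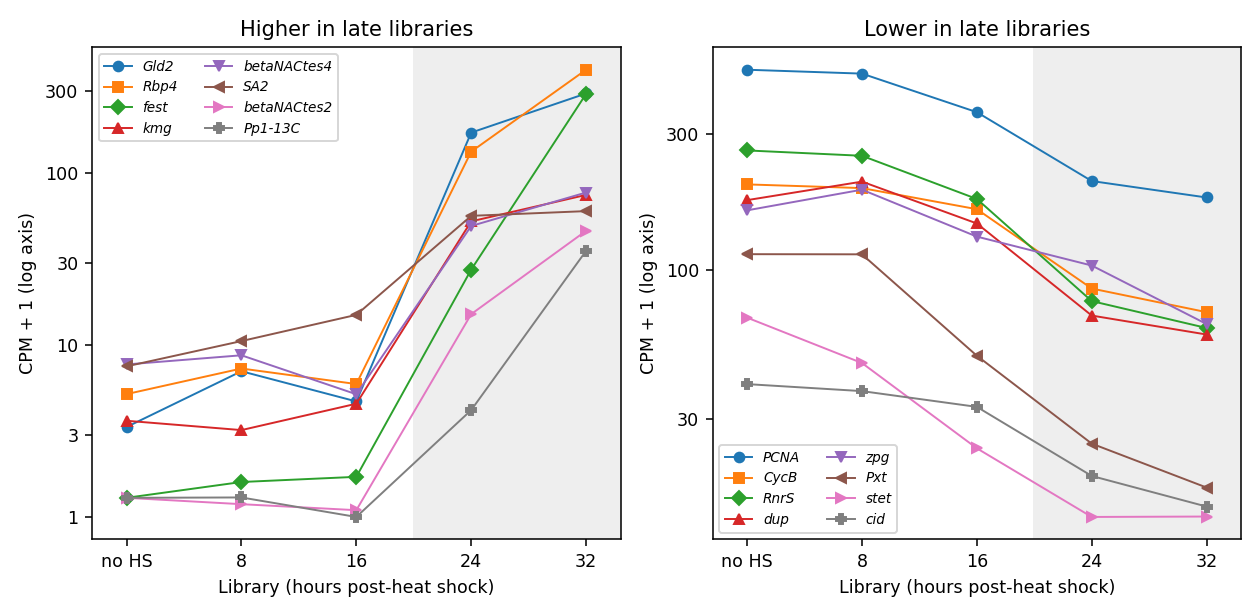
CPM + 1 on a log axis in each library, in time order with the late libraries shaded, for 8 genes called higher (left) and 8 called lower (right), 1 point per library. On the left the largest step of each gene comes after 16 h PHS, as for Gld2 at 3.70 CPM at 16 h and 171 CPM at 24 h PHS. SA2 also climbed within the early libraries, from 6.52 CPM in no HS to 14 CPM at 16 h PHS. On the right most lines already bend down at 16 h PHS.

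The RNA regulators of spermatocytes held the largest differences of all. Of 17 tested members of that list, 3 were called higher, against 0.969% of all features tested, and 0 lower. The median difference of the list was 0.15. The 3 were fest, Gld2 and Rbp4. Rbp4 is a stage marker and fest was tested only through its late values, so the count is a description and not support. fest, whose product works with Rbp4 on CycB, was at 26.5 and 289 CPM in late libraries, against 0.292, 0.597 and 0.712 CPM in early ones. Those early values were only 3, 16 and 15 reads, while the late ones were 757 and 6837 reads. fest thus reached the tested mean only through the late libraries, as did betaNACtes2, CG7213 and Pp1-13C below. The difference was 5.87 (SE 0.77, adjusted p = 0.00916), and fest was still climbing at 32 h PHS. Gld2, a cytoplasmic poly(A) polymerase that males need for late sperm development, was at 171 and 290.4 CPM in late libraries, against 2.34, 6.05 and 3.70 CPM in early ones (difference 5.55, SE 0.31, adjusted p = 0.000252). Most of the Gld2 increase was in place at 24 h PHS.

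No other member of that list was called. The testis bromodomain genes tbrd-1, tbrd-2 and tbrd-3 were at 21.3, 7.09 and 15.1 CPM at 32 h PHS but at 5.95, 0 and 2.73 CPM at 24 h PHS. Their early values were between 0 and 4.38 CPM. Their differences of 1.64, 1.47 and 2.03 were not called (adjusted p = 0.0824, 0.267 and 0.0639), and tbrd-1 and tbrd-3 lay above all their early values at both late times. The translation regulators bol, orb, orb2, Syp, eIF4E3 and eIF4G2 had differences between -0.27 and 0.73, and none of them was called.

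Among the testis meiosis arrest complex (tMAC), the testis-specific TAFs of the transcription factor TFIID and kmg, 3 of 12 tested members were called higher and 0 lower, with a median difference of 0.50. The share called higher over all features tested was 0.969%. kmg, itself a stage marker, was among the 3, so the count is a description and not support. The other called members were nht and Taf12L. nht, a testis homolog of Taf4, was at 5.85 and 30.2 CPM in late libraries, against 2.73, 1.19 and 0.38 CPM in early ones (difference 2.70, SE 0.60, adjusted p = 0.0439). Taf12L, a testis homolog of Taf12, was at 48.3 and 113 CPM, against 26.9, 28.5 and 25.7 CPM (difference 1.42, SE 0.29, adjusted p = 0.0317). Both rose again by more than 2-fold between 24 and 32 h PHS. The tMAC genes wuc and comr passed the 2-fold rule but not the test. wuc was at 2.10 and 21.8 CPM in late libraries, against 0.584, 0.299 and 0.237 CPM in early ones (adjusted p = 0.0674). comr was at 0.665 and 7.26 CPM, against 0, 0.0373 and 0 CPM (adjusted p = 0.0981). Other tMAC genes, namely aly, tomb, topi, mip40, achi and vis, had overlapping stages, and the testis TAF genes can and sa lay below 1 CPM in every library and were not tested.

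Genes for beta subunits of the nascent polypeptide-associated complex (NAC), a chaperone at the ribosome exit, made up 3 of the 15 largest called rises. betaNACtes2 was at 14.1 and 45.3 CPM in late libraries, against 0.292, 0.187 and 0.0949 CPM in early ones (difference 4.48, SE 0.39, adjusted p = 0.00266). betaNACtes4 was at 48.4 and 76.3 CPM, against 6.72, 7.73 and 4.18 CPM (difference 3.13, SE 0.25, adjusted p = 0.00195). betaNACtes1 was at 7.88 and 20.4 CPM, against 2.92, 2.46 and 0.807 CPM (difference 2.25, SE 0.41, adjusted p = 0.0249). All 3 lie on the X chromosome, and reads that fit several such copies were removed before counting, so their levels are uncertain. Other testis genes of this family, betaNACtes3, betaNACtes6 and betaNACtes5, annotated as a pseudogene, had differences of 0.22, 0.67 and 1.22. None of these was called (adjusted p = 0.582, 0.133 and 0.0857). The ubiquitous beta subunit gene bic was at 1755.5 and 1586.9 CPM in late libraries, against 1625.9, 1643.1 and 1783.2 CPM in early ones, with overlapping stages.

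Testis paralogs of proteasome, mitochondrial and other complexes showed 2 of 11 tested members called higher, 0 called lower and a median difference of 0.44. The share called higher over all features tested was 0.969%. The 2 called genes encode ATPases of the proteasome cap. Rpt6R was at 11.2 and 24.2 CPM in late libraries, against 3.21, 2.09 and 0.902 CPM in early ones (difference 2.59, SE 0.38, adjusted p = 0.012). Rpt3R was at 126 and 162 CPM, against 81.3, 96.7 and 73.0 CPM (difference 0.77, SE 0.14, adjusted p = 0.025). Their counterparts Rpt6 and Rpt3 differed by 0.27 and 0.06 and were not called. Of the 32 members in the table, 21 had a mean under 1 CPM and were not tested. ATPsynbetaL, a testis form of an ATP synthase subunit, was at 14.4 and 158 CPM in late libraries, against 3.31, 4.78 and 6.22 CPM in early ones. Its late values were so far apart that a difference of 3.13 was not called (SE 0.78, adjusted p = 0.0636).

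SA2 (SA-2 in the table, also known as snm), a gene related to a cohesin subunit, is needed to hold homologous chromosomes together in male meiosis. It was at 55.5 and 59.2 CPM at 24 and 32 h PHS, against 6.52, 9.56 and 14 CPM in no HS and at 8 and 16 h PHS, a difference of 2.46 (SE 0.25, adjusted p = 0.00443). Unlike fest, it changed by only 0.09 between 24 and 32 h PHS. Its mitotic paralog SA1 was at 94.8 and 70.3 CPM in late libraries, against 103, 123 and 109.5 CPM in early ones (difference -0.45, SE 0.14, adjusted p = 0.11), lower in both late libraries than in any early one but not called.

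The same side-by-side view was drawn for 13 sets of a testis-biased gene and its counterpart, a choice made after the values had been seen. Several of the testis-biased genes, such as wuc, Pp1-13C and betaNACtes2, reached a mean of 1 CPM only through the late libraries, so the sets are given as values and not as a pattern. The counterparts lay between -0.80 for mip120 and 0.27 for Rpt6, and the testis-biased genes between 0.22 for aly and betaNACtes3 and 5.55 for Gld2. Among the counterparts mip120 and lin-52, subunits of the general MuvB complex to which tMAC is related, were called lower. mip120 was at 84.9 and 74.7 CPM in late libraries, against 151, 138 and 129.5 CPM in early ones (adjusted p = 0.00812). lin-52 was at 16.7 CPM at both late times, against 27.2, 29.0 and 24.3 CPM in early libraries (adjusted p = 0.0241), and 47.9% of its exonic bases overlap another gene.

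**Figure D3:**
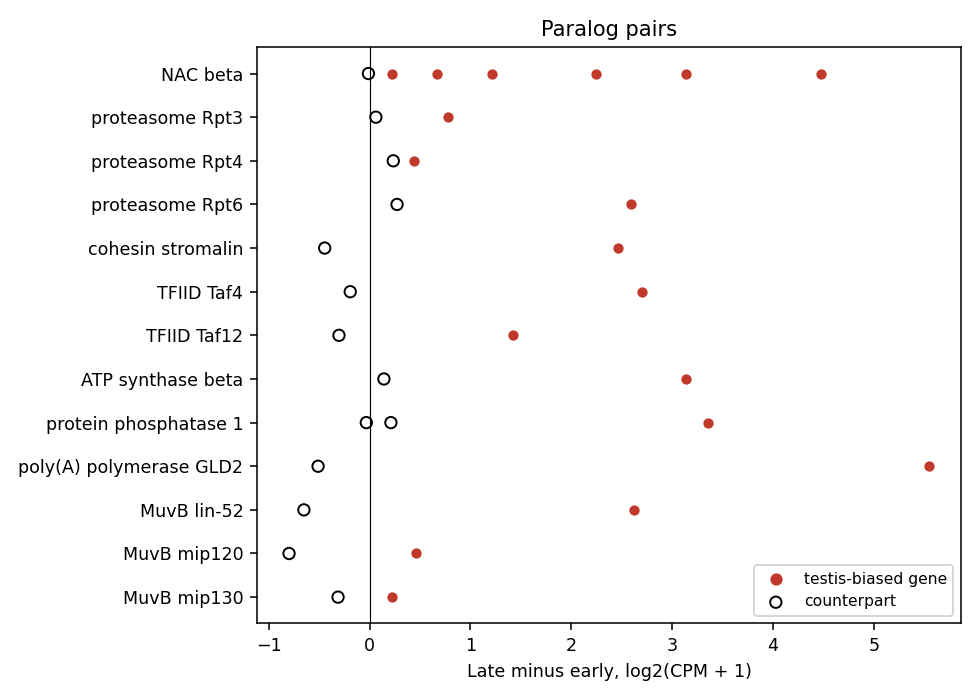
Late minus early difference (log2(CPM + 1)) for testis-biased genes (filled) and their counterparts (open) in 13 sets, 1 point per gene. The open points stay between -0.80 and 0.27, and the filled points reach 5.55 for Gld2.

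The remaining called rises among the named genes had other or unknown roles. Pp1-13C, a catalytic subunit of protein phosphatase 1, was at 3.19 and 34.4 CPM in late libraries, against 0.292, 0.299 and 0 CPM in early ones (difference 3.36, SE 0.71, adjusted p = 0.0371). CG7213 was at 7.46 and 32.0 CPM, against 0.779, 0.336 and 0.38 CPM (difference 3.49), and CG34384 was at 11.3 and 55.4 CPM, against 3.31, 2.17 and 1.76 CPM (difference 2.98). These 3 genes, like nht and fest, rose more than 2-fold again after 24 h PHS. Another set of genes was on a plateau by 24 h PHS. CG14314 was at 76.7 and 89.1 CPM, against 20.4, 17.2 and 21.4 CPM (difference 2.02, SE 0.13, adjusted p = 0.000425), and CG32259 was at 18.8 and 20.4 CPM, against 6.91, 10.7 and 8.97 CPM (difference 1.08). The double-stranded RNA-binding protein gene blanks was at 258 and 300.1 CPM, against 97.8, 133 and 102 CPM (difference 1.34, SE 0.14, adjusted p = 0.0047). hpRNA:CR18854, a hairpin RNA that is a source of endogenous siRNAs, was at 153 and 182 CPM, against 42.1, 58.1 and 52.3 CPM (difference 1.71, SE 0.14, adjusted p = 0.00222), although 39.7% of its exonic length lies within other genes.

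The timing of the rises depended on how they were chosen. In 79 of the 86 genes that limma called higher the largest step lay between 16 and 24 h PHS, with a median of 0.75, against 0.26 between 24 and 32 h PHS, and 14 of them rose by more than 2-fold again. Of the 61 genes over 2-fold higher with no overlap, 36 rose by more than another 2-fold between 24 and 32 h PHS, and 60 moved further up at all. Their median step was 1.11 between 16 and 24 h PHS and 1.21 between 24 and 32 h PHS, after median steps of 0 and -0.12 within the early libraries. In 26 of them every early library was under 1 CPM, so these 26 reached the tested mean only through the late libraries. The 2 with 0 reads in all early libraries were CG15710, at 0.735 and 13.2 CPM in late libraries, and CG9962, at 0.035 and 8.74 CPM. Against the limit set by 3 reads per early library their late means were at least 38.2-fold and at least 24.1-fold higher, but CG9962 had a single read at 24 h PHS. The 26 genes of this set that limma did not call were mostly late ones, with 22 of them rising by more than 2-fold between 24 and 32 h PHS.

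Of the 78 genes over 2-fold lower with no overlap, 0 moved down by more than another 2-fold between 24 and 32 h PHS. Their median step was -0.05 between no HS and 8 h PHS, -0.58 between 8 and 16 h, -0.78 between 16 and 24 h and -0.19 between 24 and 32 h. The 16 h library was the early one nearest to the late values in 75 of the 78. The early stage was thus not uniform for these genes, with 16 h PHS partway down. Over genes at 10 CPM or more in every library, the SD of the change from one library to the next was between 0.19 and 0.21 at all 4 steps, and that of the late minus early difference was 0.28.

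**Figure D4:**
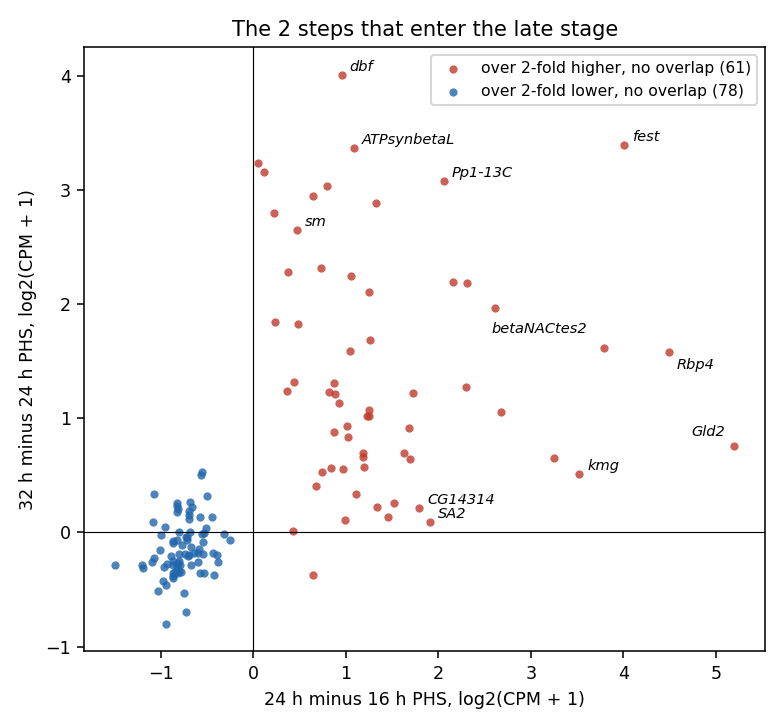
Change between 24 and 32 h PHS (vertical axis) against change between 16 and 24 h PHS (horizontal axis), both in log2(CPM + 1), for the 61 genes over 2-fold higher and the 78 over 2-fold lower in late libraries with no overlap. The higher genes spread up to 4.01 on the vertical axis, while the lower genes gather within 1 of 0 on it.

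DNA replication was the list with the most called falls. Of 38 tested members, 29 were called lower and 0 higher, 37 had no overlap with the late values below, and the median difference was -0.86. Over all features tested, 3.39% were called lower and 21.5% had no overlap with the late values below. The summed level of the list was 2646 and 2326 CPM at 24 and 32 h PHS, against 5123, 5212 and 4165 CPM in no HS and at 8 and 16 h PHS. The 2 largest falls of the list were in genes that supply nucleotides. RnrS, the small subunit of ribonucleotide reductase, was at 76.6 and 61.4 CPM in late libraries, against 262, 250.5 and 176 CPM in early ones (difference -1.71, SE 0.17, adjusted p = 0.00443). Ts, thymidylate synthase, was at 33.9 and 28.2 CPM, against 122, 111 and 73.4 CPM (difference -1.66, SE 0.20, adjusted p = 0.0073).

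Genes that license replication origins followed. dup, the fly Cdt1, which loads the MCM helicase, was at 68.0 and 58.2 CPM in late libraries, against 175, 203 and 144 CPM in early ones (difference -1.44, SE 0.14, adjusted p = 0.00443). Mcm7, a helicase subunit, was at 16.0 and 11.7 CPM, against 39.5, 47.0 and 32.3 CPM (difference -1.45, SE 0.18, adjusted p = 0.00793), but 81.7% of its exonic bases overlap another gene. The subunit genes Mcm2, Mcm3, Mcm5, Mcm6 and dpa (Mcm4) were all called lower, with differences between -1.44 and -1.16. CycE, the cyclin of S phase entry, was at 109 and 90.9 CPM, against 248, 245 and 198 CPM (difference -1.20, adjusted p = 0.0047). The 9 members that were not called included the clamp loader genes RfC3, RfC38 and Gnf1 and the GINS genes Psf1, Psf2 and Psf3, with differences between -0.44 and -0.25. The exonuclease gene WRNexo, outside the list, was at 7.14 and 3.67 CPM in late libraries, against 12.7, 21.5 and 14.6 CPM in early ones (difference -1.45, adjusted p = 0.0262).

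Mitosis genes fell less. Of 32 tested members, 18 were called lower and 0 higher, 29 had no overlap with the late values below, and the median difference was -0.52. The shares over all features tested were 3.39% called lower and 21.5% with no overlap and late values below. The summed level was 3795 and 3283 CPM in late libraries, against 5055, 5137 and 4866 CPM in early ones. CycB, the mitotic cyclin, was at 84.9 and 70.0 CPM, against 199, 193 and 162 CPM (difference -1.24, SE 0.12, adjusted p = 0.00415). cid, the centromeric histone, was at 17.9 and 13.7 CPM, against 38.7, 36.5 and 32.0 CPM (difference -1.14, SE 0.14, adjusted p = 0.00807). At the other end of the list, the spindle checkpoint genes Bub1, BubR1, Bub3 and Mps1 and the kinetochore gene Ndc80 had differences between -0.21 and -0.01 and none was called. Cks30A, a cofactor of the cell cycle kinase that is outside the list, was at 16.1 and 9.54 CPM, against 23.0, 27.7 and 27.3 CPM (difference -1.0, SE 0.20, adjusted p = 0.0311). Of the 70 replication and mitosis genes together, 61 had their lowest value at 32 h PHS. The same share over all features was not counted. Of all 301 called falls, 263 moved further down between 24 and 32 h PHS.

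Ribosome biogenesis genes were called lower in 4 of 24 cases and higher in 0, with a median difference of -0.40. Over all features tested, 3.39% were called lower. NHP2, a protein of small nucleolar RNPs, was at 183 and 108 CPM in late libraries, against 255, 291 and 254 CPM in early ones (difference -0.91, SE 0.19, adjusted p = 0.0358). The summed level of the list was 6228 CPM at 24 h but 4809 CPM at 32 h PHS, against 6507, 7265 and 7345 CPM in early libraries, so the lower level was mainly that of the 32 h library.

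In the early germ line list 2 of 23 members were called lower, against 3.39% of all features tested, and 0 higher, with a median difference of -0.29. Both late values lay below all early ones for 10 members and above them for 3. The shares over all features tested were 21.5% and 19.6%. Differences within the list ran from -1.64 to 0.47. stet, a membrane protease that frees the EGF-type signal from germ cells to their cyst cells, was at 12.5 and 12.6 CPM in late libraries, against 66.9, 46 and 22.6 CPM in early ones (difference -1.64, SE 0.36, adjusted p = 0.0418). zpg, the germ line gap junction protein, was at 102 and 63.5 CPM, against 161, 190 and 130 CPM (difference -0.96, SE 0.21, adjusted p = 0.0408). stet was already low at 16 h PHS, while zpg was lowest at 32 h PHS. Phf7, a histone reader of the male germ line outside the list and named after its value was seen, was at 173 and 184 CPM, against 439, 475 and 367 CPM (difference -1.24, SE 0.11, adjusted p = 0.00336).

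The meiotic chromosome list moved both ways, with 1 of 14 members called higher and 3 lower and a median difference of -0.31. The shares over all features tested were 0.969% called higher and 3.39% called lower. The one higher was SA2. c(3)G, the central protein of the synaptonemal complex of females, was at 15.8 and 13.0 CPM in late libraries, against 32.8, 40.2 and 24.2 CPM in early ones (difference -1.10, SE 0.20, adjusted p = 0.023). sunn, a protein of sister chromatid cohesion, was at 18.6 and 13.0 CPM, against 35.6, 33.3 and 26.2 CPM (difference -0.97, SE 0.18, adjusted p = 0.025). The third was nod, a kinesin-like protein of meiotic chromosomes, with a difference of -0.59 (adjusted p = 0.0495).

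The largest fall of all belonged to none of these lists. Pxt, a peroxidase related to cyclooxygenase, was at 23.5 and 16.2 CPM in late libraries, against 112, 112 and 48.9 CPM in early ones (difference -2.07, SE 0.34, adjusted p = 0.0169). Ccdc114, whose human counterpart docks dynein arms in cilia, was at 6.51 and 5.15 CPM, against 30.3, 29.5 and 16.3 CPM (difference -1.90, SE 0.25, adjusted p = 0.00921). RhoGAP100F was at 20.9 and 20.5 CPM, against 88.0, 71.5 and 42.5 CPM (difference -1.59, adjusted p = 0.0169). In each of these the 16 h value lay between the other early values and the late ones.

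The other named falls had varied roles. alphaTub67C, the maternal alpha-tubulin, was at 3.33 and 3.46 CPM in late libraries, against 17.6, 13.3 and 7.36 CPM in early ones (difference -1.57, adjusted p = 0.0252). gnu, part of a kinase complex of the activated egg, was at 4.17 and 4.01 CPM, against 16.6, 18.7 and 7.5 CPM (difference -1.49, adjusted p = 0.0385). fs(1)N, an eggshell protein, was at 13.1 and 13.0 CPM, against 39.7, 39.0 and 19.7 CPM (difference -1.20, adjusted p = 0.0439). These 3 genes changed little after 24 h PHS. HP1D3csd, related to heterochromatin protein 1, was at 31.7 and 22.8 CPM, against 74.8, 94.7 and 61.5 CPM (difference -1.46, adjusted p = 0.00916), and the helicase gene Mov10 was at 4.66 and 3.93 CPM, against 19.3, 15.5 and 8.11 CPM (difference -1.46, adjusted p = 0.0342). CG14545, CG13690 and CG7208, of which no role is given here, had differences of -1.49, -1.49 and -1.47.

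**Figure D5:**
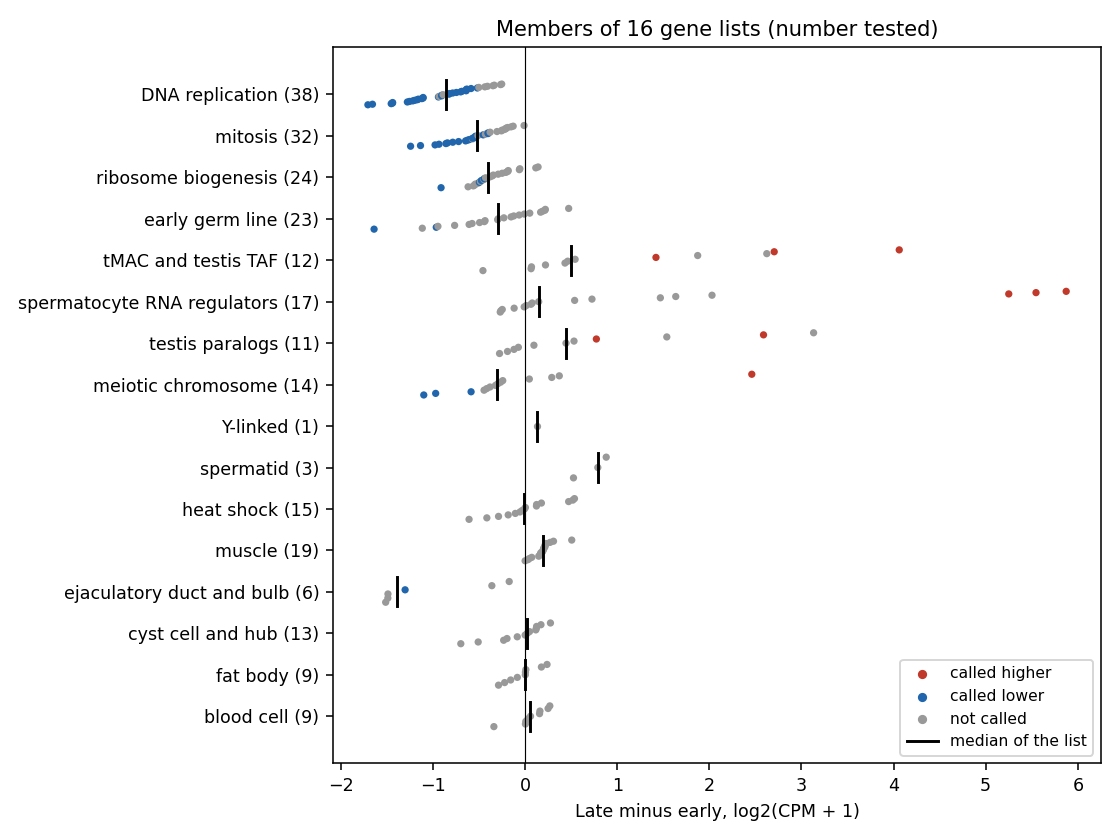
Late minus early difference (log2(CPM + 1)) of every tested member of 16 gene lists, 1 point per gene, with the number tested beside each name and a bar at the median. Replication and mitosis members lie left of 0, with medians of -0.86 and -0.52. The medians were 0.15 for spermatocyte RNA regulators, 0.50 for tMAC and testis TAF genes and 0.44 for testis paralogs, with a few genes far to the right.

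Genes of later germ cell stages were still low. Of 24 spermatid genes in the table, 3 had a mean of at least 1 CPM and none was called, and the summed level was 7.46 and 23.3 CPM at 24 and 32 h PHS, against 6.43, 6.94 and 7.5 CPM in early libraries. Of 8 Y-linked genes in the table, 1 was tested, FDY, at 110.3 and 122 CPM in late libraries, against 85.5, 125 and 113 CPM in early ones, with overlapping stages. The fertility factor genes kl-2, kl-3 and kl-5 were at no more than 0.195 CPM in every library.

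No member of the heat shock list was called, of 15 tested, and the median difference was -0.01. The summed level was 10750 CPM at both late times, against 8040, 11440 and 7228 CPM in no HS and at 8 and 16 h PHS. Lists of other cells of the sample were compared in the same way. Of 19 muscle genes none was called, but 10 had both late values above all early ones, and the median difference was 0.19. Over all features tested, 19.6% had both late values above all early ones. Their summed level was 2789 and 2752 CPM in late libraries, against 2190, 2375 and 2700 CPM in early ones. The part that these sheath cells played in the calls was not tested. Of the tested cyst cell and hub genes (13), fat body genes (9) and blood cell genes (9), none was called, and the median differences were 0.02, 0.00 and 0.06. The summed levels ran from 348 to 391 CPM in late and from 382 to 411 CPM in early libraries for cyst cell and hub genes, from 711 to 753 CPM and from 642 to 696 CPM for fat body genes, and from 1782 to 1801 CPM and from 1369 to 1716 CPM for blood cell genes.

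The ejaculatory duct and bulb list had 1 of 6 tested members called lower, against 3.39% of all features tested, and a median difference of -1.40. The called gene was Spn77Bc, a serpin, at 1.96 and 1.44 CPM in late libraries, against 7.30, 3.21 and 7.31 CPM in early ones (difference -1.30, SE 0.30, adjusted p = 0.0498). Spn77Bb, Anp and Dup99B, all low, followed the same pattern of libraries, with the 8 h value nearer to the late ones than the no HS and 16 h values were, and none was called. The summed level of the list was 105 and 83.2 CPM in late libraries, against 125, 108 and 145 CPM in early ones. No accessory gland gene reached a mean of 1 CPM, and their summed level was 12.4 and 3.33 CPM, against 3.70, 2.31 and 4.08 CPM. These levels varied between libraries of one stage, and their part in the fall of Spn77Bc was not tested.

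The called genes were spread over the genome. Called rises made up 1.34% of the tested genes on the X chromosome (21 of 1570), 1.16% on arm 2L, 0.727% on 2R, 0.934% on 3L and 0.839% on 3R. Called falls made up between 3.27% and 3.63% of the tested genes of each of these arms. None of the 74 tested genes of chromosome 4 and none of the 3 on the Y chromosome was called.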

How the data were processed

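Poly(A)-selected RNA of 5 libraries was sequenced. Per the labels and the methods of the study, the authors trimmed reads with Trim Galore 0.4.3, aligned them with STAR 2.5.3 to BDGP6, removed reads of low mapping quality with SAMtools 1.4.1, counted reads per feature with featureCounts of Subread 1.5.0 and normalized with the TMM method of edgeR 3.34.0. Whether reads were counted by strand is not given in the sources used here, so genes that overlap may share reads. For 17528 features the authors deposited log2 values of normalized CPM plus 1, from which CPM was recovered as 2 to that power, minus 1. Each library's values were whole multiples of 1 read (100% of values, within 0.1 read). A count of 0 allows up to between 0.105 and 0.292 CPM (3 reads; counting error only).

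limma 3.58.1 under R 4.3.3, with a trend of variance on level, was fitted to log2(CPM + 1) of 2 late and 3 early libraries, two-sided, with Benjamini-Hochberg adjustment over 8873 features whose mean reached 1 CPM. SE is limma's. The fit was tested on simulated data. Differences on this scale understate those of low genes. Nothing in the labels gives separate cultures or repeats of a time. The stages, the lists (17, with 340 of 366 symbols matched) and the rules were chosen with earlier results of these data known.

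Named genes are kmg, Rbp4 and PCNA, and among called genes with no overlap and at least 10 CPM in the higher stage the 15 largest differences each way, the 5 widest gaps, and among those over 2-fold the 5 that changed most and least between 24 and 32 h PHS, plus the 2 most changed called members of each list. One result under this rule is not reported here. Other genes were named as list members or after their values were seen. Symbols and coordinates are from the BDGP6.54 annotation, in which 14797 of 14819 gene identifiers were found, a later release than the BDGP6.46 used by the authors. Sequences of promoters, planned for a motif count, were not analysed here. Alternatives were pseudocounts of 0.1 and 5 CPM, no filter or a mean of 10 CPM, rescaling by total or median ratio, limma without trend, voom on recovered reads, and each library left out. Python 3.11.15 with numpy 2.4.6, pandas 2.3.3 and matplotlib 3.10.9 was used.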

Additional observations from a re-analysis of the deposited data

How the results depend on the processing

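The counts of called genes depended on the processing. Every called gene had no overlap between stages, so its direction is fixed when a library is left out or the pseudocount changed, and under the other alternatives no called gene turned its sign. Without a filter on low values 15 genes were called higher and 51 lower, and limma without trend called 17 and 39. Over 2-fold with no overlap, a pseudocount of 0.1 CPM gave 92 higher, a pseudocount of 5 CPM gave 35 higher and 43 lower, and a mean of at least 10 CPM gave 25 higher, by leaving out low genes. Leaving out 1 library at a time gave 9 to 202 called higher, 2 to 436 called lower, 35 to 127 over 2-fold higher with no overlap and 61 to 131 over 2-fold lower. voom on the recovered reads called 80 higher and 273 lower, of which 77 and 270 were shared with the main calls. Rescaling to a common total called 83 and 245. Of the 45 genes named by rule, 35 lost their call without the 32 h library, 29 without 8 h, 12 without no HS, 7 without 24 h and 4 without 16 h. No paired analysis was possible because the labels give 1 library per time and no replicate numbers shared between stages. Depth limits genes under about 1 CPM, which the shallow no HS library counts in about 10 reads. The cause of these differences was not tested.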

Other observations

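Of the 51 called rises of less than 2-fold, 7 are given here, picked after their values were seen. Rpn2, a base subunit of the proteasome cap, was at 787 and 737 CPM at 24 and 32 h PHS, against 594, 560.3 and 576 CPM in no HS and at 8 and 16 h PHS (difference 0.40, SE 0.08, adjusted p = 0.0326). Prosalpha3, a core subunit, was at 376 and 403 CPM, against 296, 309 and 285 CPM (difference 0.39, adjusted p = 0.0357). Rpn5 and Rpn13 had differences of 0.33 and 0.39 (adjusted p = 0.048 and 0.035). The cap ATPase genes Rpt3, Rpt4 and Rpt6 had differences of 0.06, 0.23 and 0.27 and were not called (adjusted p = 0.755, 0.131 and 0.143). Npl4, a cofactor that delivers ubiquitylated proteins, and eff, a ubiquitin-conjugating enzyme, had differences of 0.59 and 0.53 (adjusted p = 0.0169 and 0.0212). Dcr-2, which makes siRNAs from double-stranded RNA, was at 110.8 and 110.3 CPM, against 73.7, 82.3 and 87.5 CPM (difference 0.44, adjusted p = 0.0417).

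E2f1, a transcription factor of the cell cycle, was at 194 and 176 CPM in late libraries, against 289.8, 279 and 261 CPM in early ones (difference -0.58, adjusted p = 0.0146). Its partner Dp was at 152 and 140.5 CPM, against 239, 258 and 229 CPM (difference -0.72, adjusted p = 0.0073). The yolk protein receptor gene yl was at 25.2 and 30.4 CPM, against 99.9, 88.5 and 45.6 CPM (difference -1.38, adjusted p = 0.0349), and dhd, a thioredoxin of the egg, was at 32.8 and 24.9 CPM, against 77.0, 90.9 and 60.6 CPM (difference -1.36, adjusted p = 0.00916). These 4 genes were also chosen after their values were seen.

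Genes known only by a CG or CR number made up 34.9% of the called rises and 16.3% of the called falls, against 32.6% of all features tested. Of the 61 genes over 2-fold higher with no overlap, 26 had their largest step between 24 and 32 h PHS. sm and dbf were among these. sm, an RNA-binding protein, was at 44.0 and 281 CPM in late libraries, against 32.2, 28.8 and 31.3 CPM in early ones (adjusted p = 0.128), and dbf was at 1.68 and 42.1 CPM, against 0.779, 0.224 and 0.38 CPM (adjusted p = 0.119). Ant2, a mitochondrial ADP/ATP carrier, had risen before the late stage, at 539 and 545 CPM in late libraries, against 121, 188 and 399 CPM in no HS and at 8 and 16 h PHS (difference 1.37, SE 0.39, adjusted p = 0.0936).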
